A study of Mus musculus with 6 samples.

Results

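The genes described here encode the metal-dependent proteases that cut extracellular matrix and cell-surface proteins, with their inhibitors: the matrix metalloproteinases (Mmp), the membrane-bound ADAM proteases, the secreted ADAMTS proteases, the ADAMTS-like proteins (Adamtsl), the 4 tissue inhibitors of metalloproteinases (Timp1 to Timp4) and Reck. They were chosen by gene name, with pseudogenes left out and with a count above 0 in at least 1 library. Of 55401 genes in the deposited table, 86 had such a name and 65 of these had a count. The 65 were 20 Mmp genes, 19 Adam genes, 16 Adamts genes, 5 Adamtsl genes and 5 inhibitor genes.

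The study compared livers of male mice that differed in Prdx1, which encodes peroxiredoxin 1, an enzyme that removes peroxides. The 3 control mice were Prdx1(lox/lox), with both Prdx1 alleles floxed and no Cre. The 3 knockout mice were Prdx1(lox/lox);Alb-cre, with the same floxed alleles and a Cre transgene under the albumin promoter, which is active in hepatocytes. Mice of both genotypes were 8 weeks old and received MCD for 5 weeks, which the labels do not spell out and which in liver studies is most often a diet lacking methionine and choline. Mice on another diet were not analysed here, so every difference below is between genotypes on MCD. Each library held poly(A) RNA of whole liver.

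In an injured liver, fibre-forming collagen and elastic fibres are laid down mainly by stellate cells and fibroblasts, and metalloproteinases cut, remodel or release these proteins. Mmp and ADAMTS proteases are made as inactive precursors that lose a propeptide, either to other proteases or to furin-like convertases, and TIMPs block the zinc site of the active enzyme. ADAM proteases mostly release the outer parts of membrane proteins, and ADAMTS-like proteins have the matrix-binding parts of ADAMTS proteins without the protease.

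The libraries held between 58790874 and 78291273 deposited counts, and genes with a count numbered 20903 to 21073 in control and 22499 to 23189 in knockout libraries. Prdx1 was at 644, 570 and 663 CPM (counts scaled to a fixed library total with trimmed-mean factors) in controls 1 to 3 and at 78.7, 111 and 75.4 CPM in knockouts 1 to 3. On the log2 scale the Prdx1 difference was -2.82 ± 0.17 (SE, adjusted p = 4.4e-05, quasi-likelihood test of edgeR). An exact two-sided permutation test of the mean Prdx1 CPM gave p = 0.1, and no smaller p is possible with 3 mice per genotype. Below, a gene rose or fell where this edgeR test, adjusted by Benjamini-Hochberg over all 18931 genes tested, was under 0.05. Fold changes are knockout minus control on the log2 scale, with their SE.

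Most of the metalloproteinase genes that could be tested were higher in knockout liver. Of the 65 genes, 55 had enough counts to be tested: 32 rose, 3 fell (Mmp13, Mmp15 and Mmp19) and 20 did not pass. Over all genes tested, 19.9% rose and 18.0% fell. Every knockout library lay above every control library for 37 of the 55 genes, against 28.8% of all genes, and below for 5, against 24.2%. The median log2 fold change was 1.11, against 0.05 over all genes tested, and 25 of the 32 risen genes were at least 2-fold higher. Since a gene can pass the count filter on its knockout libraries alone, the count was repeated for genes whose 3 control libraries were all above the filter. Of 48 such members, 31 rose (64.6%) and 3 fell (6.25%), against 19.8% and 21.3% of 16065 such genes overall.

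By class, 4 of 4 tested inhibitors, 4 of 5 ADAMTS-like genes and 10 of 15 ADAMTS genes rose. For ADAM genes it was 7 of 15 and for Mmp genes 7 of 16, and the 3 genes that fell were all Mmp genes. Class medians of the log2 fold change were 2.71 for ADAMTS-like genes, 1.83 for inhibitors, 1.80 for ADAMTS, 0.87 for Mmp and 0.74 for ADAM genes.

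**Figure D1:**
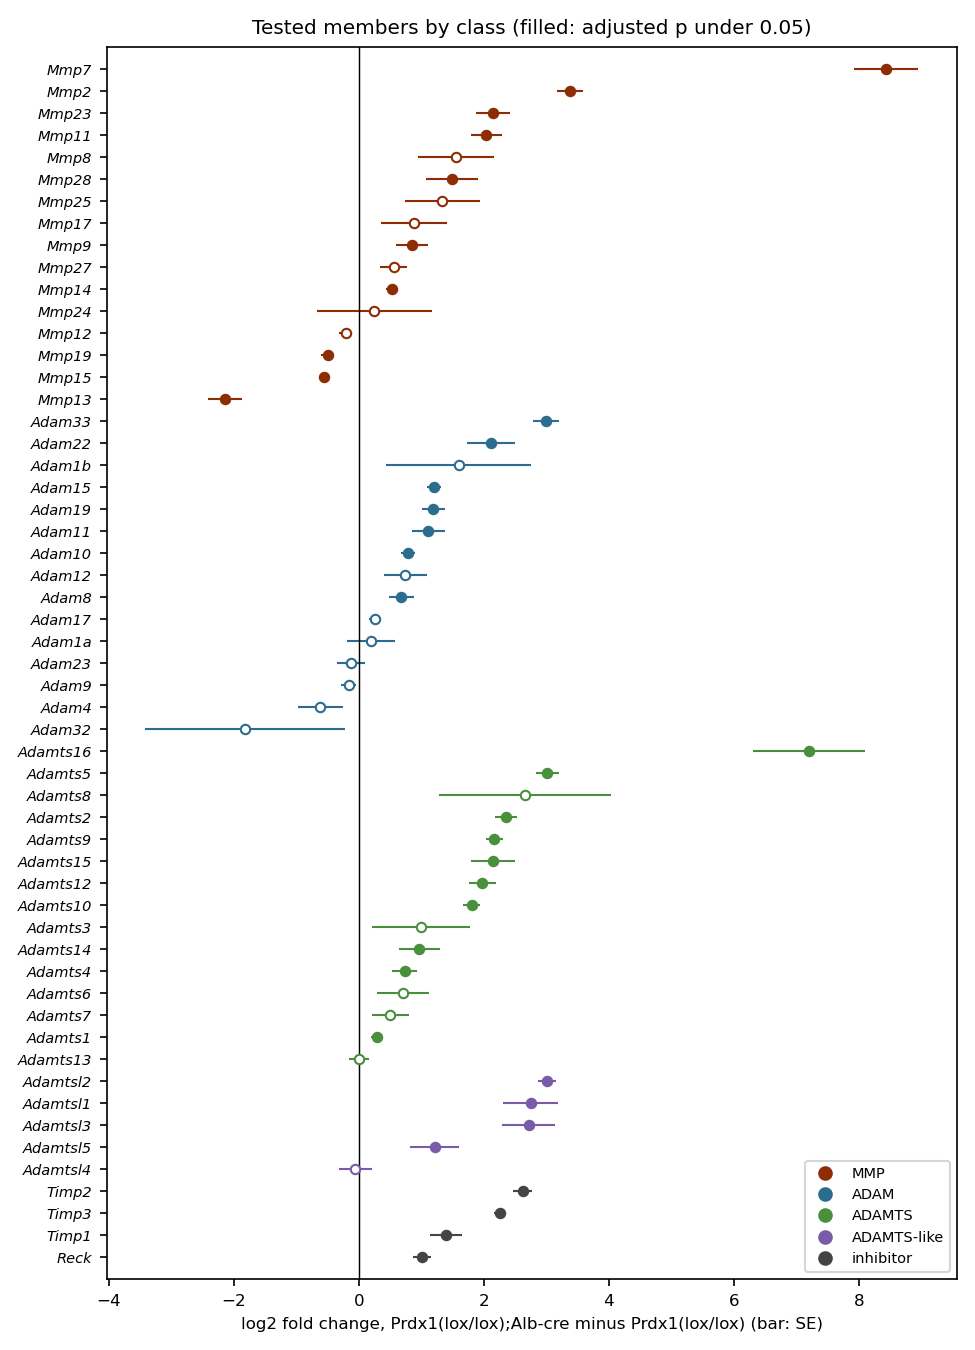
Log2 fold change of the 55 tested genes, knockout minus control, with bars of 1 SE and colour by class (filled points: adjusted p under 0.05). All filled points lie right of 0 except those of Mmp13, Mmp15 and Mmp19. The fitted value of Adamts16 rests on almost no control counts and is not a measured fold.

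In bulk liver RNA, fewer cells of a type and less RNA per cell cannot be told apart, and markers of several cell types differed between the genotypes. Of 12 hepatocyte markers, 11 fell, and their summed level was 100035 to 121922 CPM in control and 57621 to 72326 CPM in knockout libraries, so both groups had the defining transcripts of liver. The number of hepatocyte falls depended on scaling. With library size alone 9 of the 12 fell, at a median log2 fold change of -0.44 instead of -0.80, and in fits on FPKM 6 to 8 fell. Of 14 stellate cell and fibroblast markers, 12 rose, from a sum of 769 to 852 CPM to one of 2165 to 2536 CPM. Of 10 monocyte-derived macrophage markers, 9 rose, from 673 to 734 CPM to 1522 to 1552 CPM. All 10 cholangiocyte markers rose, from 82.5 to 93.9 CPM to 1094 to 1274 CPM. None of these markers was at 0 in all libraries. The part of such cell types in the differences below was not tested.

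Mmp7, or matrilysin, a small protease without the usual collagen-binding end domain and known as a product of epithelial cells, differed most. It was at 0.214, 0.188 and 0.958 CPM in controls 1 to 3 and at 165, 167 and 142 CPM in knockouts 1 to 3. The control values came from 12, 11 and 56 deposited counts, and control 3 was 4.77 times the mean of the other controls. No library of one group came near the other. The log2 fold change was 8.43 ± 0.52 (adjusted p = 4.98e-05, edgeR) and the ratio of mean CPM was 349. Without control 3 the log2 fold change was 9.61 and the ratio 786, so the size of the rise depended on that library and its direction did not. At about 4 deposited counts per read pair, both ratios rest on few control read pairs and are not precise folds. Compared per transcript length, as FPKM, Mmp7 went from rank 38 among the 65 genes in control liver, at a mean of 0.336 FPKM, to rank 1 in knockout liver, at 152 FPKM. The cholangiocyte markers that rose beside it included Epcam (log2 fold change 4.38), Prom1 (4.42), Cftr (4.90) and Spp1 (4.22), and their part in the Mmp7 value was not tested. An opposite-strand gene, AV064505, shares 11.5% of the exonic bases of Mmp7 but had at most 17 deposited counts in any library.

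**Figure D2:**
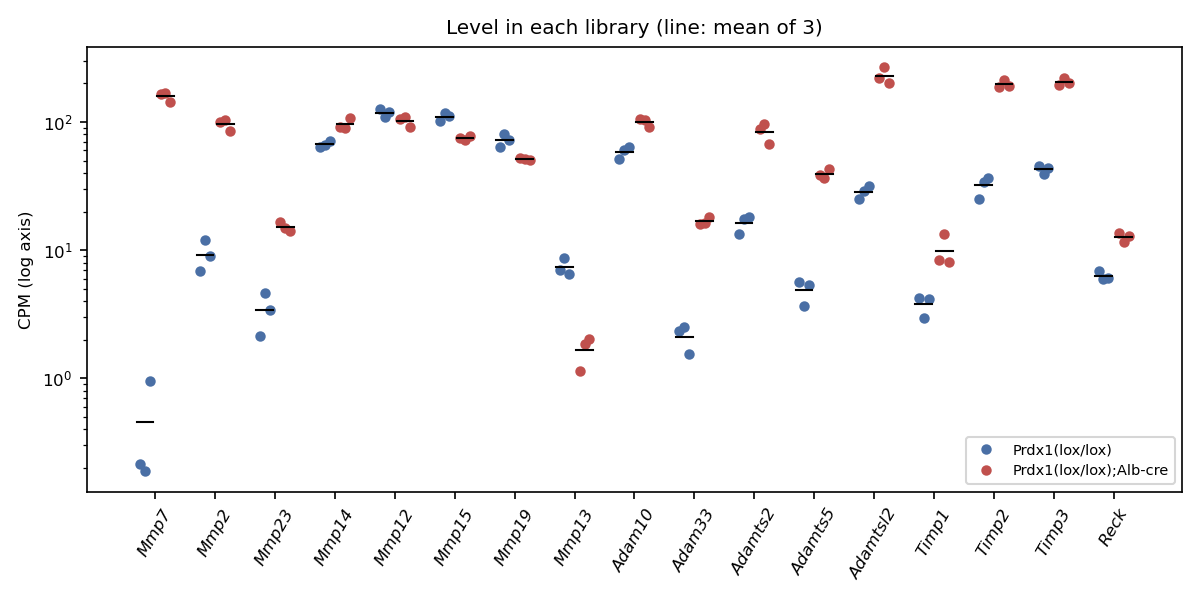
CPM of 17 genes in each library on a log axis, with lines at group means (blue: control, red: knockout). Mmp7 has the widest gap, from under 1 to between 142 and 167 CPM, while the groups of Mmp12 nearly touch and Mmp13, Mmp15 and Mmp19 are lower in knockout libraries.

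Mmp7 lies at one end of a cluster of 10 Mmp genes on chromosome 9 (GRCm38, 7272514 to 7699585, 427 kb). Of the 5 tested genes of the cluster, 1 rose and 1 fell, shares close to the 19.9% and 18.0% of all genes tested. In order along the chromosome the 10 genes are Mmp13, Mmp12, Mmp1b, Mmp3, Mmp1a, Mmp10, Mmp8, Mmp27, Mmp20 and Mmp7. Mmp13, the main collagenase of mouse tissue, is the gene at the far end from Mmp7 and fell. It was at 6.99, 8.65 and 6.48 CPM in control and 1.15, 1.84 and 2.01 CPM in knockout libraries, with no overlap. Its log2 fold change was -2.14 ± 0.27 (adjusted p = 0.000785). The ratio of Mmp7 to Mmp13, in FPKM, was 0.164 ± 0.178 (SD, n = 3) in control and 255 ± 93.8 in knockout livers, and the control mean was 0.0617 without control 3.

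Between these ends, 1 gene was abundant and the others were scarce. Mmp12, the macrophage elastase, was at 126, 109 and 120 CPM in control and 106, 109 and 91.7 CPM in knockout libraries, and did not pass (log2 fold change -0.21 ± 0.10, adjusted p = 0.136). The lowest control and the highest knockout library were nearly equal, and with scaling by library size alone the Mmp12 difference was 0.16, in the other direction. Mmp8, the neutrophil collagenase, was at 0.339, 0.462 and 0.137 CPM in control and 0.752, 0.706 and 1.3 CPM in knockout libraries (log2 fold change 1.55 ± 0.61, adjusted p = 0.083). Mmp27, at 2.12 to 2.39 CPM in control and 3.13 to 3.39 CPM in knockout libraries, also missed the threshold (log2 fold change 0.56 ± 0.21, adjusted p = 0.0779). Neutrophil markers beside Mmp8 rose for 3 of 6 tested, with a summed level of 16.5 to 21.4 CPM in control and 36.1 to 44.4 CPM in knockout libraries and with Camp at 0 in all, and their part was not tested. Mmp3, Mmp10 and Mmp20 had too few counts for a test, and Mmp1a and Mmp1b had none.

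**Figure D3:**
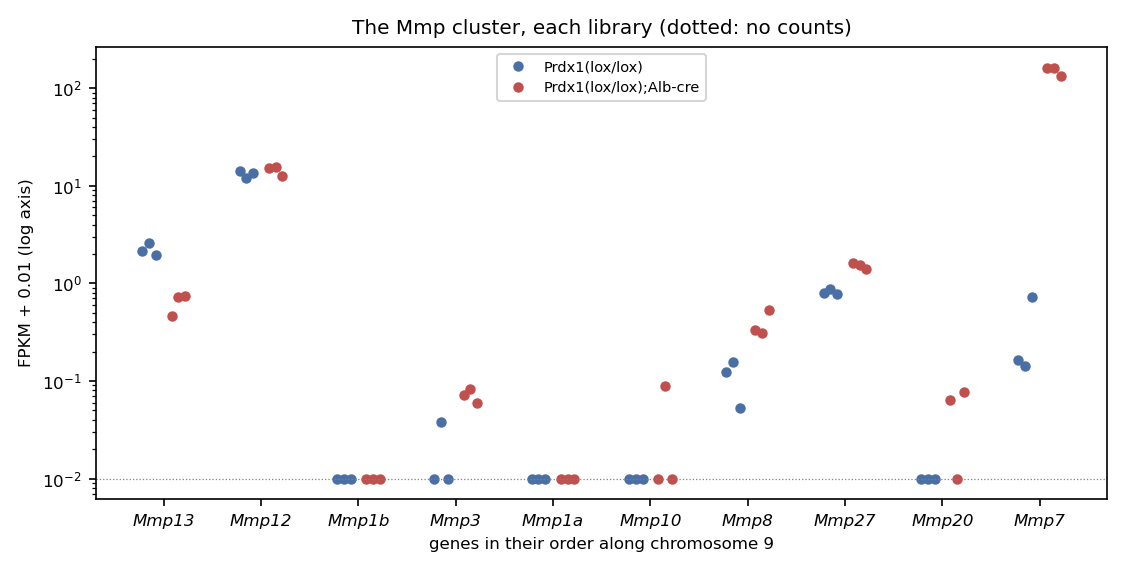
FPKM plus 0.01 (log axis) of the 10 Mmp genes of the chromosome 9 cluster in each library, in their order on the chromosome, with the dotted line at no counts. Mmp7 at the right end rises from below 1 to above 130 FPKM, Mmp13 at the left end falls, and Mmp12 lies near 13 to 15 FPKM on average.

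Windows before RefSeq start sites are shown because Mmp7 and Mmp13, which differed in opposite directions, each have one with the same short motifs. The sequences are the 250 bases before the RefSeq start on GRCm38.p6, 5′ to 3′ on the plus strand, with capitals marking AP-1 matches (TGANTCA, bound by Fos and Jun proteins) and TATA matches (TATAAA). Adamtsl2, the most changed ADAMTS-like gene by p, is shown as a gene outside the cluster with a GC-rich window. They cover chr9:7691840-7692089 for Mmp7, chr9:7272264-7272513 for Mmp13, chr9:7347124-7347373 for Mmp12, chr9:7558179-7558428 for Mmp8 and chr2:27079129-27079378 for Adamtsl2. Mmp7 and Mmp12 each have a further RefSeq window with no AP-1 or TATA match, not printed because it overlaps exons: chr9:7692091-7692340 for Mmp7 and chr9:7344147-7344396 for Mmp12. The omitted Mmp12 window is the one at the start of the gene in the deposited table (7344381), and the printed one lies inside the gene.
Mmp7: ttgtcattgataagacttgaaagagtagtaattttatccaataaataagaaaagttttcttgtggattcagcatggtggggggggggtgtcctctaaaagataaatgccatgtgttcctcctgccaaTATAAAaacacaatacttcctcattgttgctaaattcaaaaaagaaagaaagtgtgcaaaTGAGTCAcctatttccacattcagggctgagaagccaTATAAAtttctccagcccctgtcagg
Mmp13: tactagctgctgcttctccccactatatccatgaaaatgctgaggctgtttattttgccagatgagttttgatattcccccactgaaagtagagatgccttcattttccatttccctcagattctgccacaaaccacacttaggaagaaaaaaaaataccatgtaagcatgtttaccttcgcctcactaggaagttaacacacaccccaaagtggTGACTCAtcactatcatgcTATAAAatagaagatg
Mmp12: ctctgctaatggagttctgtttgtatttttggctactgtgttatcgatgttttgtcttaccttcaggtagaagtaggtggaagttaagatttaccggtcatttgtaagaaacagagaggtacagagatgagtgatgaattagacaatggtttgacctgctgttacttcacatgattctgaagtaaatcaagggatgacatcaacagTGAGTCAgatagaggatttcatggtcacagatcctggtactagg
Mmp8: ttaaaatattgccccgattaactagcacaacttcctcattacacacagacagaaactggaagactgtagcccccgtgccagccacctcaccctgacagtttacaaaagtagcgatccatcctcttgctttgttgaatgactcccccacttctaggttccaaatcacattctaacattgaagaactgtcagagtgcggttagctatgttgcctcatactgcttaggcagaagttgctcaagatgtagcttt
Adamtsl2: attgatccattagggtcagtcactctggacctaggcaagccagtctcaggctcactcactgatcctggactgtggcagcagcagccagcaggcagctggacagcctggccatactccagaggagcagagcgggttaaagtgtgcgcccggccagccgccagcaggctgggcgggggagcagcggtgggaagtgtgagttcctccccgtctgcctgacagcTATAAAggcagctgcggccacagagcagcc

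In the printed windows, the AP-1 match began 63 bases before the start in Mmp7, which rose, 35 bases before it in Mmp13, which fell, and 44 bases before the start inside the gene in Mmp12, which did not pass. Mmp7 and Mmp13 also had a TATA match, at 26 and 16 bases, and Mmp7 had another at 123 bases. Of AP-1 and TATA matches, the Mmp8 window held neither, and the Adamtsl2 window held a TATA match alone, at 30 bases. RefSeq windows were found for 43 of the 65 genes (48 windows). By window, an AP-1 match, searched on both strands, was found in 6 of 10 windows of the cluster genes with counts (1 each of Mmp3, Mmp7, Mmp10, Mmp12, Mmp13 and Mmp20), in 1 of 38 windows of the other genes (Adam19) and in 6.75% of all 32851 windows. A TATA match was found in 5 of 10, in 3 of 38 and in 12.4% of all windows. SP1 boxes (GGGCGG) were in 0 of 10, in 23 of 38 and in 32.7% of all windows, and the median GC content was 39.8% against 63.2%. The other motifs searched were in 41.7% of the genes' windows against 35.2% of all (TGANNNNGC, whose letters can overlap AP-1), 18.8% against 14.05% (TGTGGT, RUNX) and 33.3% against 29.5% (AGGAAG, ETS). Of the genes for AP-1 subunits, Junb rose (log2 fold change 0.74, adjusted p = 0.0101), and Fos, Fosl1, Fosl2, Jun and Jund did not pass. These matches describe letters in a window and not binding.

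Among the other Mmp genes, the gelatinases, which cut denatured collagen and basement membrane, both rose. Mmp2 was at 6.83, 11.9 and 8.95 CPM in control and 99.0, 104 and 84.5 CPM in knockout libraries. It had the second largest Mmp rise, a log2 fold change of 3.38 ± 0.21 (adjusted p = 5.26e-05), and in FPKM it went from rank 16 to rank 4. Mmp9, known from neutrophils and macrophages, moved much less, from 1.77, 1.74 and 1.49 CPM to 2.43, 3.52 and 3.06 CPM (0.85 ± 0.26, adjusted p = 0.0355), and lost the threshold in 5 of 6 fits that left out 1 library.

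Mmp23, a membrane-anchored member with an unusual end domain, and Mmp11, a stromelysin that is activated by furin inside the cell, also rose. Mmp23 was at 2.14, 4.65 and 3.42 CPM in control and 16.4, 14.8 and 14.2 CPM in knockout libraries (log2 fold change 2.15 ± 0.27, adjusted p = 0.000826). Mmp11 was at 0.963, 1.49 and 1.49 CPM against 5.22, 5.43 and 5.52 CPM (2.03 ± 0.25, adjusted p = 0.000721). In Mmp11, 5.58% of exonic bases overlap the opposite-strand gene Chchd10, which had 20460 to 29871 deposited counts and fewer in each knockout than in each control library. Mmp28, or epilysin, rose from 0.359 to 0.874 CPM to 1.85 to 2.11 CPM (1.49 ± 0.42, adjusted p = 0.0259), and lost the threshold without any 1 of the 3 knockout libraries (adjusted p 0.0645 to 0.0797).

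Of 5 tested membrane-type Mmp genes, 1 rose and 1 fell, shares close to the 19.9% and 18.0% of all genes tested. Mmp14, which activates the Mmp2 precursor at the cell surface, was at 63.6, 66.2 and 70.6 CPM in control and 91.7, 90.0 and 107 CPM in knockout libraries, a small rise with no overlap (log2 fold change 0.53 ± 0.10, adjusted p = 0.00467). Mmp15, another membrane-type protease, was at 101, 117 and 110 CPM against 74.8, 72.8 and 77.1 CPM (-0.55 ± 0.09, adjusted p = 0.0021). Mmp17, Mmp24 and Mmp25 did not pass. Mmp19, a secreted protease, was at 64.2, 80.7 and 72.0 CPM against 52.6, 51.3 and 50.2 CPM (-0.49 ± 0.10, adjusted p = 0.00729). The falls of Mmp15 and Mmp19 depended on scaling: with library size alone the values were -0.18 and -0.12 and neither passed, while that of Mmp13 passed. Mmp19 shares 22.3% of its exonic bases with the opposite-strand gene Tmem198b.

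All 4 tested inhibitors rose, and the fitted changes of Timp2 and Timp3 were larger than that of Timp1. Timp1, the inhibitor usually followed in liver fibrosis, was at 4.23, 2.94 and 4.14 CPM in control and 8.34, 13.3 and 8.05 CPM in knockout libraries, with knockout 2 highest. Its log2 fold change was 1.39 ± 0.26 (adjusted p = 0.00434). Timp2, which both inhibits Mmp2 and helps Mmp14 to activate it, was at 24.8, 34.2 and 36.8 CPM against 187, 211 and 190 CPM (2.62 ± 0.16, adjusted p = 4.73e-05). Timp3, which binds to matrix and also inhibits ADAM17 and ADAMTS proteases, was at 45.01, 39.4 and 44.1 CPM against 195, 219 and 201 CPM (2.26 ± 0.09, adjusted p = 1.37e-05). No control library overlapped a knockout library for any of the 3. The difference between the Timp1 and the other fold changes was not tested. Of the Timp3 exonic bases, 21.3% lie in the opposite-strand gene Syn3, which had 58 to 91 deposited counts in every library.

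Reck, a membrane-anchored inhibitor of several Mmp proteins, was at 6.81, 5.97 and 6.06 CPM in control and 13.6, 11.5 and 12.8 CPM in knockout libraries (log2 fold change 1.01 ± 0.14, adjusted p = 0.00124). Timp4 had no counts in control libraries and was at 0.206, 0 and 0.449 CPM in knockout libraries. The knockout mean was 3.15 times a floor of 12 deposited counts over the control group. That ratio leaves out the spread between mice, and the difference was not tested. Stellate cell and fibroblast markers, such as Pdgfra (log2 fold change 2.75) and Lum (2.37), rose beside the inhibitors, and their part was not tested.

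Summed per transcript length, the class sums changed unequally. The Mmp sum was 63.0 ± 3.16 FPKM (SD, n = 3) in control and 255 ± 23.2 FPKM in knockout livers. Mmp7 made up 0.530% ± 0.522 of the Mmp sum in control (0.229% without control 3) and 59.6% ± 1.48 in knockout livers. Without Mmp7 the sums were 62.6 ± 3.11 and 103 ± 5.80 FPKM. In control liver, Mmp19, Mmp15, Mmp12 and Mmp14 led the Mmp genes at means of 16.4, 16.3, 13.2 and 9.01 FPKM. The sum of the inhibitors was 15.3 ± 1.28 FPKM in control and 91.6 ± 9.71 FPKM in knockout livers. Inhibitor over Mmp transcripts was 0.243 ± 0.0217 in control and 0.360 ± 0.0278 in knockout livers, and 0.244 against 0.891 when Mmp7 was left out. Among the TIMPs, Timp2 had 46.2% of the sum in control and 58.2% in knockout livers, Timp3 29.9% and 29.1%, and Timp1 23.9% and 12.7%. These sums describe transcripts and not active enzyme, and no test was run on them. FPKM carries no trimmed-mean scaling. The median gene was 0.25 higher in knockout livers on the log2(FPKM + 0.5) scale and 0.36 higher on the log2(FPKM + 0.1) scale.

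**Figure D4:**
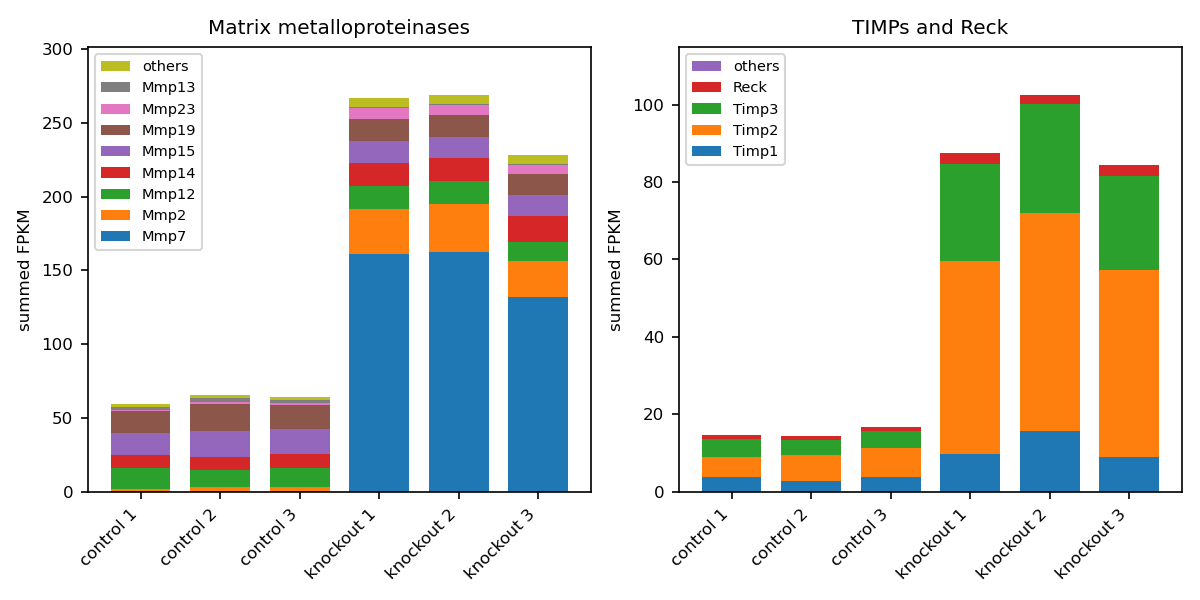
Summed FPKM of the Mmp genes (left) and of the TIMPs and Reck (right) in each library, stacked by gene. In the knockout libraries the Mmp bars are mostly Mmp7 (59.6% on average), and the inhibitor bars are led by Timp2 and Timp3.

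Of the 15 tested ADAMTS proteases, 10 rose and 5 did not pass (Adamts3, Adamts6, Adamts7, Adamts8 and Adamts13). Adamts2, which removes the amino-terminal propeptide of fibrillar procollagens, was at 13.4, 17.6 and 18.0 CPM in control and 87.4, 96.7 and 66.8 CPM in knockout libraries (log2 fold change 2.36 ± 0.18, adjusted p = 9.53e-05). The other procollagen N-proteinases were less clear. Adamts14 passed narrowly, with overlapping groups of 4.16 to 8.69 and 8.13 to 15.8 CPM (0.97 ± 0.32, adjusted p = 0.0493), and did not pass in 4 of the 6 fits that left out 1 library. Adamts3 did not pass (0.99 ± 0.79, adjusted p = 0.369).

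Of 6 proteases that cut versican, aggrecan and related proteoglycans, 5 rose (Adamts1, Adamts4, Adamts5, Adamts9 and Adamts15), and Adamts8, at 0.449 CPM or less in every library, did not pass. This grouping is textbook knowledge and was made with the values known. Adamts5 was at 5.65, 3.66 and 5.32 CPM in control and 38.3, 36.5 and 43.1 CPM in knockout libraries (log2 fold change 3.01 ± 0.18, adjusted p = 4.98e-05). Its neighbour Adamts1, 53.1 kb away on chromosome 16, was at 36.0, 37.1 and 39.0 CPM against 44.8, 48.7 and 43.3 CPM (0.29 ± 0.09, adjusted p = 0.0384). Adamts1 was not called in any fit that left out 1 library (the highest adjusted p was 0.132). Adamts9 was at 7.96, 8.50 and 8.40 CPM against 38.1, 42.3 and 31.5 CPM (2.17 ± 0.14, adjusted p = 5.28e-05), and Adamts15 rose with a log2 fold change of 2.15 ± 0.35 (adjusted p = 0.00264). Adamts4 rose by 0.73 ± 0.20 on the log2 scale (adjusted p = 0.0236) and lost the threshold in 4 of the 6 fits that left out 1 library.

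Adamts10, which binds fibrillin microfibrils, was at 18.6, 19.8 and 15.5 CPM in control and 56.6, 69.9 and 61.7 CPM in knockout libraries (log2 fold change 1.80 ± 0.13, adjusted p = 8.24e-05). Adamts12 rose as well (1.97 ± 0.22, adjusted p = 0.000468). Adamts16 had 4, 0 and 0 deposited counts in control libraries, about 1 read pair in all, and 154, 322 and 440 in knockout libraries, or 2.27, 3.55 and 5.20 CPM. It passed the count filter on its knockout libraries alone. It was called (adjusted p = 0.00081), but no fold is given against so few control counts. Adamts13, the plasma protease that cuts von Willebrand factor and is made mainly by stellate cells in liver, was at 9.72, 10.4 and 10.2 CPM in control and 11.8, 10.1 and 8.54 CPM in knockout libraries. Its log2 fold change was 0.00 ± 0.16 (adjusted p = 0.991), with knockout libraries on both sides of the controls. Adamts6 and Adamts7 did not pass.

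Of the ADAMTS-like genes, Adamtsl2 stood out in level. Its protein binds fibrillin and the latent TGF-beta binding protein family. It was at 25.2, 29.0 and 31.4 CPM in control and 220, 267 and 201 CPM in knockout libraries (log2 fold change 3.01 ± 0.14, adjusted p = 2.14e-05). In FPKM it went from 2.87 (rank 13) to 29.5 (rank 3), behind Mmp7 and Timp2. Adamtsl2 lies at 27079379 to 27108981 on chromosome 2 (plus strand), 69.8 kb from Adamts13, which did not pass. Adamtsl1 and Adamtsl3 were scarcer and rose with log2 fold changes of 2.75 ± 0.44 (adjusted p = 0.00232) and 2.71 ± 0.43 (adjusted p = 0.00214), and Adamtsl1 reached 3.45 without control 1. Adamtsl5 passed narrowly (1.21 ± 0.39, adjusted p = 0.0432) and lost the threshold in 5 of the 6 fits that left out 1 library. Adamtsl4 was at 7.85 to 14.3 CPM in control and 7.70 to 12.5 CPM in knockout libraries, with overlap (-0.06 ± 0.26, adjusted p = 0.886).

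Of the ADAM sheddases with the highest levels, Adam10 rose and Adam17 and Adam9 did not pass. Adam10, which starts Notch receptor cleavage and releases many membrane proteins, was at 51.3, 60.0 and 63.4 CPM in control and 106, 103 and 91.6 CPM in knockout libraries (log2 fold change 0.79 ± 0.11, adjusted p = 0.00128). Adam17, which releases tumour necrosis factor and ligands of the epidermal growth factor receptor, was at 38.0, 40.8 and 33.9 CPM against 45.4, 45.1 and 44.7 CPM. Every knockout library was higher, but Adam17 missed the threshold (0.26 ± 0.10, adjusted p = 0.0642). Adam9, the most abundant of the 65 genes in control liver at 18.7 FPKM, was at 99.6, 88.3 and 99.2 CPM against 72.3, 90.8 and 93.9 CPM and did not pass (-0.16 ± 0.12, adjusted p = 0.339).

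Adam33, a protease known from fibroblasts and smooth muscle, had the largest called rise of the ADAM genes. It was at 2.32, 2.50 and 1.54 CPM in control and 16.1, 16.2 and 18.2 CPM in knockout libraries (log2 fold change 2.99 ± 0.21, adjusted p = 7.75e-05). Adam15 rose from 9.51, 11.0 and 10.6 CPM to 25.2, 24.0 and 22.5 CPM (1.20 ± 0.12, adjusted p = 0.000259), and Adam19 from 4.99, 4.19 and 3.75 CPM to 11.2, 8.56 and 9.69 CPM (1.19 ± 0.18, adjusted p = 0.00199). Among Adam11, Adam22 and Adam23, whose proteins have no catalytic site, Adam22 (2.11 ± 0.38, adjusted p = 0.00397) and Adam11 (1.11 ± 0.26, adjusted p = 0.0127) rose and Adam23 did not pass. Adam8, found on myeloid cells, rose by 0.68 ± 0.20 on the log2 scale (adjusted p = 0.028) and lost the threshold in 5 of the 6 fits that left out 1 library. Adam12, Adam1a, Adam1b, Adam32 and Adam4 did not pass. For Adam1a, 63.7% of exonic bases are shared with Gm42878 on the same strand, so its counts are uncertain.

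Genes that work with these proteases were read from lists of substrates, activators and regulators. These lists were chosen with earlier results of these data known, so their shares are descriptive. Of 107 such genes in the table, 97 were tested, 56 rose (57.7%) and 12 fell. Over all genes tested, 19.9% rose and 18.0% fell, and the counts of each list below are to be read beside these shares. All 9 tested collagens of the list rose (median log2 fold change 2.10), among them Col1a2 (2.10) and Col6a3 (3.02). All 13 tested elastic fibre and microfibril genes rose (median 2.51), led by p by Ltbp3 (2.81), Eln, the gene of elastin (4.51), and Ltbp2 (4.24). Of 5 tested ADAMTS substrates, 4 rose: Thbs2 (2.76), Vcan (1.51), Thbs1 (0.83) and Vwf (0.59). The other tested substrate did not pass, at a log2 fold change of -2.72 with every knockout library below every control library. Thbs1 lost the threshold without control 3, knockout 1 or knockout 2 (adjusted p 0.0613, 0.0553 and 0.077). Col1a1 and Col3a1 are also on the stellate cell and fibroblast list, and the part of those cells was not tested.

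Activators both rose and fell. In the plasminogen system, 4 of 10 rose and 3 fell: the activators Plat (log2 fold change 3.11) and Plau (1.33) and the inhibitor Serpine2 (3.18) were among those that rose, and Plg itself fell (-0.55, adjusted p = 0.00575). With library size alone Plg was at -0.18 and did not pass (adjusted p = 0.158), and 1 gene of the system fell, S100a10. Of the 4 convertases, 3 fell and none rose. Furin was at a mean of 441 CPM in control and 225 CPM in knockout livers (-0.97, adjusted p = 0.00212), and Pcsk6 at 133 and 59.7 CPM (-1.16, adjusted p = 9.1e-05). Both passed in every alternative fit run, while Pcsk5 (-0.47, adjusted p = 0.0466) did not. Hepatocyte markers fell beside them, and their part was not tested.

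Of 8 tested partners of ADAM10 and ADAM17, 3 rose: Rhbdf1 (log2 fold change 0.61), Tspan17 (0.63) and Tspan33 (0.60), the last 2 losing the threshold in 4 of the 6 fits that left out 1 library. Without knockout 1 or knockout 2, 1 of the partners rose. Of 18 shed substrates, 8 rose and 3 fell, with 1 fall without knockout 2 or knockout 3 or with library size alone. Cx3cl1, the membrane-bound chemokine fractalkine, was at 2.51 CPM in control and 30.0 CPM in knockout livers (3.58, adjusted p = 1.9e-05), while Met, the receptor of hepatocyte growth factor, fell (-0.91). Of 16 other matrix proteases and inhibitors, 8 rose, among them Htra3 (3.16), Ctsk (2.40), Ctss (1.46) and Pcolce (1.54). In that list 3 fell, but 1 fell without control 1, 2 or 3 or knockout 2, and 1 with library size alone. Of 16 collagen receptors and Mmp regulators, 8 rose and 0 fell (1 fell without control 3 or knockout 3), among them the collagen receptors Ddr1 (2.32) and Ddr2 (1.35) and the growth factors Tgfb2 (2.75) and Tgfb3 (2.82).

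Scaling bore on the genes near no change and on smaller falls, and did not turn the direction of named genes with large rises. With library size alone, the median gene was 0.41 higher in knockout livers on the log2 scale instead of 0.05, and 83.8% of all calls were rises instead of 52.5%. Relative to that shift the order of the genes was similar. Mmp12, Adam9 and Adamtsl4 changed sign, and the falls of Mmp15 and Mmp19 lost their calls. Every named gene with a log2 fold change above 1 kept its direction under every alternative run.

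**Figure D5:**
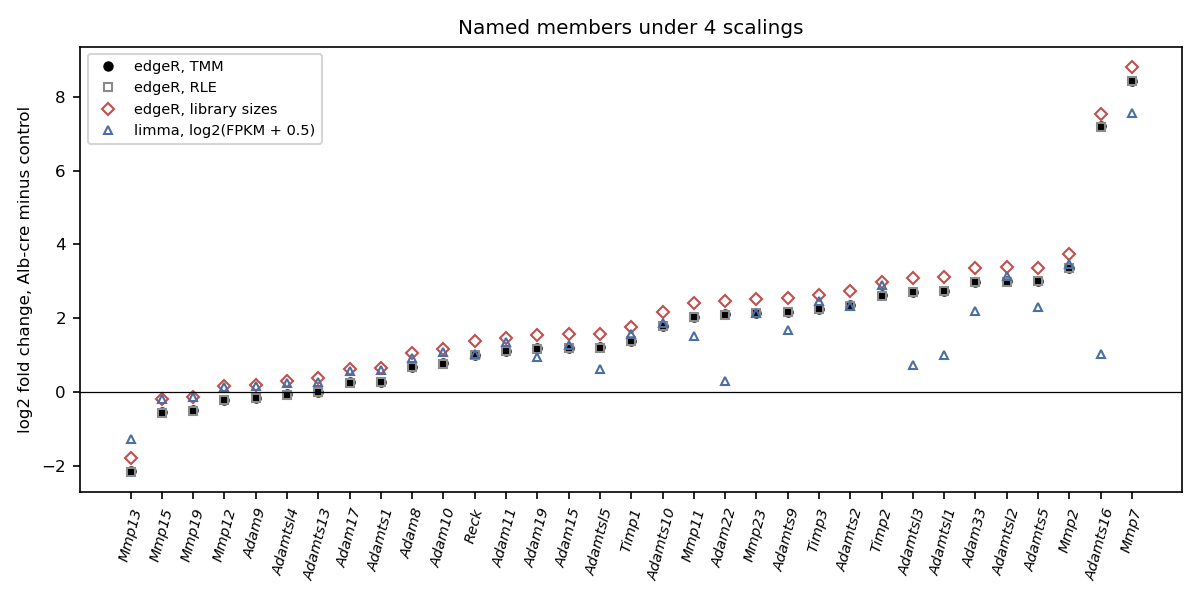
Log2 fold changes of the named tested genes under 4 scalings, ordered by the edgeR value with trimmed-mean (TMM) factors. Library sizes alone (diamonds) lift all genes by a similar amount, the pseudocount of 0.5 FPKM (triangles) shrinks scarce genes such as Adam22 and Adamts16, and genes left of Adam17 lie near 0 or change sign, other than Mmp13.

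The remaining genes were at or near the detection limit. Adam21, Adam30, Adam5, Adam6b, Adamts17, Mmp10, Mmp16, Mmp20, Mmp3 and Timp4 were not tested. The knockout mean was 1.93 times the control floor for Mmp20 and 2.44 times for Adam5. For Adam6b, the control mean was 2.53 times the knockout floor. Each mean came from counts in 1 or 2 libraries, with the rest of that group at 0. These ratios leave out the spread between mice and are not lower bounds of a fold. Adam21, Adam30 and Mmp10 were at or under the floor in both groups. The 21 named genes with no count in any library included Mmp1a, Mmp1b, Mmp21 and the ADAM genes Adam2, Adam3 and Adam7.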

How the data were processed

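Liver poly(A) RNA of 6 mice, 3 per genotype, was sequenced as strand-marked read pairs with unique molecular identifiers, per the labels' protocols. The authors deposited 1 table that holds, for each gene and library, an FPKM value and an estimated count. The submitters' processing notes list StringTie 1.3.4d, HISAT2 2.0.4, edgeR, DESeq2, cutadapt 1.9 and UMI-tools without roles, and a build that the positions do not match: all 65 genes are in GENCODE M21 (GRCm38), 57 with identical positions. Whether counting used strand is not given in the sources used here. Columns named wt were taken as Prdx1(lox/lox), the only genotype without Cre.

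Deposited counts are whole, but low values cluster at multiples of 4 (854 genes at 4, 280 at 3 and 167 at 5 in control 1). They were treated as estimated counts with about 4 per read pair, and no counting interval is given. Groups at 0 were compared through a floor of 3 read pairs, or 12 deposited counts per group. FPKM as deposited was used, with genes without counts taken as 0. Tests used edgeR 4.0.16 in R 4.3.3 (TMM factors, filterByExpr with a minimum count of 10 and total of 15, two-sided quasi-likelihood test, Benjamini-Hochberg over 18931 genes, threshold 0.05), with genotype as the only term. The plan named this test for counts, and the counts proved to be estimated. The script was tested on simulated data. SEs come from the F statistic. CPM compares libraries for a gene, and FPKM compares genes.

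Alternatives were DESeq2 1.42.0, RLE factors, library sizes alone, counts divided by 4, no count filter, a replicate block, limma 3.58.1 on log2(FPKM + 0.1, 0.5 or 1), and leaving out each library. Named were Prdx1, every inhibitor, and in each other class the 5 genes highest in mean FPKM and the called genes with the 4 largest rises and falls, plus up to 4 genes per list by p. Mmp8, Mmp9, Mmp14, Mmp27, Mmp28, Adamts3, Adamts4, Adamts12, Adamts14, Adamts15, Plg, Junb and marker genes outside that rule were chosen after their values were seen. Genes and lists were chosen with earlier results of these data known. Protein sequences were not used here. The remaining marker lists rose or fell as follows: Kupffer cell 4 and 0 of 6, T and NK cell 4 and 0 of 8, B and plasma cell 1 and 1 of 5, sinusoidal endothelium 0 and 4 of 6, vascular endothelium 3 and 0 of 5, mesothelium 0 and 1 of 3, pancreas 0 and 1 of 2, and RNA quality 0 and 1 of 6 genes. For all genes tested the shares were 19.9% and 18.0%. The RNA quality genes summed to 29350 to 31917 CPM in control and to 22375 to 24208 CPM in knockout libraries, with no overlap. Without control 1, control 2, knockout 2 or knockout 3, 1 of the T and NK cell genes rose. The mesothelium fall was lost without control 3 or knockout 2, with 2 falls without knockout 3, the pancreas fall was lost without control 1, control 3 or any knockout library, and with library sizes alone 2 RNA quality genes rose and 0 fell.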

Additional observations from a re-analysis of the deposited data

How the results depend on the processing

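With DESeq2, RLE factors, counts divided by 4 and no count filter, 32, 31, 34 and 30 of the metalloproteinase genes rose and 3 fell. With library sizes alone, 37 rose and 1 fell, 5 partner genes fell, and 6459 genes overall rose and 1249 fell. With limma on log2(FPKM + 0.1), 1 of the metalloproteinase genes and 5 partner genes fell, with 6666 rises and 1362 falls overall. These were 1, 5, 6671 and 1364 with a pseudocount of 0.5, 1, 5, 5981 and 1148 with that pseudocount and no filter, and 1, 5, 6651 and 1364 with a pseudocount of 1. With edgeR and TMM factors these 4 counts were 3, 12, 3767 and 3415. In these settings the call was lost for Mmp15 and Mmp19 and gained, in each of them, for Adam17, Mmp8 and Mmp27.

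Changes of sign occurred in genes that had not passed. Adam9 was at 0.21 with library sizes and 0.18, 0.18, 0.18 (no filter) and 0.17 with FPKM. Adamtsl4 was at 0.31 and at 0.30, 0.25, 0.25 (no filter) and 0.21, and ranged from -0.24 to 0.22 over fits leaving out 1 library. Mmp12 was at 0.16 and at 0.13 in all 4 FPKM fits. Adamts13 was at -0.0073 with DESeq2, -0.0069 with RLE factors and -0.0088 with the replicate block, and from -0.12 to 0.12 when 1 library was left out. The cause was not tested for any of these.

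The mice of the 2 genotypes share replicate numbers, but same-numbered libraries deviated together only weakly (correlations of 0.0157, 0.0309 and 0.0353), so the numbers were not taken as pairs, although each library correlated best with its own number. With the replicate block, 27 of the genes rose and 3 fell, and Adamts1, Adamts14, Adamts4, Adamtsl5 and Mmp9 lost the call. Leaving out 1 library at a time, 26 to 28 of the 32 rises and all 3 falls kept their calls. With 3 mice per genotype, small differences such as those of Adam17 and Mmp27 are not resolved, and a scarce gene rests on fewer molecules than its deposited count.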
